A study of Mus musculus with 6 samples.

Results

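The chemokine Cxcl12, its receptors Cxcr4 and Ackr3 and the protease Dpp4 were followed as 4 genes of 55471 in the deposited table. They were chosen by name as the ligand, its signalling receptor, its scavenging receptor and the enzyme that inactivates it, and each matched 1 Ensembl identifier. RNA was measured in endosteal mesenchymal stromal cells, the stromal cells along the inner bone surface, of C57BL/6J mice. The 3 libraries labelled Bap1 cKO carry Prx1-cre together with Bap1fl/fl, and the 3 labelled Bap1 WT carry the floxed alleles without a Cre named in the label. Prx1-cre acts in limb bud mesenchyme and its descendants, so not in every cell of a bone. The labels give no age, sex or pooling. Nor do they state whether each library is a mouse of its own, so a p-value here reflects sample-to-sample spread, which may be technical.

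Cxcl12 is secreted by marrow stromal cells and binds Cxcr4 on haematopoietic stem cells and B cell progenitors, which couples to inhibitory G proteins and holds these cells in the niche. Ackr3 binds the same chemokine without G protein signalling and takes it up for degradation, which lowers its concentration around the cell. Dpp4 is a membrane-bound dipeptidyl peptidase that removes the first dipeptide of Cxcl12 and so abolishes its action on Cxcr4. In marrow stroma Cxcl12 is a leading product, while Cxcr4 is mainly a gene of blood cells.

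Cxcl12 was lower and Ackr3 higher in the libraries labelled Bap1 cKO, while Cxcr4 and Dpp4 stayed at or near 0 in both groups. Cxcl12 averaged 31.6 ± 28.4 RPKM in the cKO libraries and 508 ± 17.2 RPKM in the WT libraries, and Ackr3 averaged 21.9 ± 4.14 and 0.957 ± 0.101 RPKM (SD, n = 3 in each group, as for all means given). RPKM relates reads to transcript length and library size, so levels can be set side by side between genes of a library. Between libraries it does not correct for differences in RNA composition, and other scalings are given at the end. In bulk RNA, fewer cells of a type and less RNA per cell cannot be told apart.

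The regulatory sequences of the 2 members that changed are shown because these genes carry the difference. They are 250 bases before the transcription start in RefSeq (GRCm38.p6), for Cxcl12 on the plus strand at chr6:117168285-117168534 and for Ackr3 on the plus strand at chr1:90203730-90203979. Capitals mark matches on either strand to the GC box (GGGCGG), the TATA box (TATAAA) and 2 forms of the hypoxia response core, one beginning with G (GCGTG) and one with A (ACGTG).
Cxcl12: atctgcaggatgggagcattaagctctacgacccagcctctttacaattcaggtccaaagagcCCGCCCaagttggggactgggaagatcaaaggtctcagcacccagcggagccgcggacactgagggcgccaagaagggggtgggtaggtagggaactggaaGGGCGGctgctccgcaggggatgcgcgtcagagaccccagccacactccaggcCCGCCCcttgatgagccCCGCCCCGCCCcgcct
Ackr3: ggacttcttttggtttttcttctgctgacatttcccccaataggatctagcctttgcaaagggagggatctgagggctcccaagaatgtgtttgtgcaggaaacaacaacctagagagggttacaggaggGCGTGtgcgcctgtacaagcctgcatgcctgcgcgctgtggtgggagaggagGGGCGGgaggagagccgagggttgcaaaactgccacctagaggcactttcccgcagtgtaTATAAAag
The Cxcl12 window held 5 GC boxes, 1 pair of which shares bases, and 0 matches to the other motifs. The Ackr3 window held 1 match to the TATA box, with 2 bases between it and the start, 1 GC box, 1 core of the G form and 0 of the A form. Of 32851 RefSeq windows of this length, 32.7% held a GC box, 12.4% a TATA box, 28.2% a core of the G form and 16.6% one of the A form. GC content was 64.4% before Cxcl12 and 54% before Ackr3, against a median of 52.4% over all windows. Such matches describe the letters alone, and binding was not measured.

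The libraries labelled cKO differed from the WT libraries in most genes. Among the 12223 genes tested, whose mean over the libraries reached 1 RPKM, 61.2% passed an adjusted p of 0.05 in limma, 34.7% as higher and 26.5% as lower in cKO. The median log2 difference was 0.09. Bap1 itself had 28.27, 25.16 and 22.99 RPKM in the cKO libraries and 22.8, 22.72 and 24.01 RPKM in the WT libraries (limma adjusted p = 0.29). A value over the whole gene does not show whether floxed exons were removed, so it does not check the labels. The 12 markers of mesenchymal stromal cells summed to 126 to 165 RPKM in the cKO libraries and 2081 to 2235 RPKM in the WT libraries. Of the 11 tested, 8 were lower, with Thy1 at 0 to 0.22 RPKM in cKO and 10.65 to 14.81 RPKM in WT, and Col1a2 at 7.92 to 21.2 RPKM in the cKO libraries, against 946 to 995 RPKM in WT. Pdgfra was higher, and Prrx1 and Nt5e did not pass. Lepr, a marker of the perisinusoidal stroma, reached at most 0.14 RPKM in any library. Of 9 kidney epithelial markers, Pax8 stood at 124 to 243 RPKM in the cKO libraries and 0.12 to 0.21 RPKM in WT, and Umod and Slc34a1 were listed at 0 throughout. The general epithelial markers Epcam and Cdh1 reached at most 0.29 and 0.12 RPKM in the cKO libraries and were listed at 0 in WT. The 8 epithelial markers summed to 2.04 to 6.03 RPKM in cKO and 12.58 to 14.89 RPKM in WT. Most of each sum came from the keratin Krt19, at 1.67 to 5.79 RPKM in cKO and 11.73 to 13.73 RPKM in WT. The part of this difference in cell identity in the results that follow was not tested.

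Cxcl12 (ENSMUSG00000061353, chromosome 6, 117168535 to 117181367, plus strand, GRCm38) has 4 annotated transcripts, 3 of them coding, which the gene-level value sums. It stood at 12.41, 18.1 and 64.22 RPKM in the libraries labelled cKO and at 521.07, 513.66 and 488.27 RPKM in the WT libraries. All cKO values lay below all WT values, as in 29.8% of all genes tested (69% for either direction), and the cKO libraries were far from equal to each other. The fall was 16.1-fold in group means, and 33.3-fold without cKO replicate 3. Against the WT mean, the single cKO libraries were 40.9-fold, 28.0-fold and 7.91-fold lower. On the log2(RPKM + 1) scale the difference was -4.31 ± 0.54 (SE) and limma's adjusted p (Benjamini-Hochberg) was 0.000666. Of the 12223 genes tested, 84, or 0.687%, differed at least as far in the lower direction. The exact two-sided permutation test gave p = 0.1, the smallest that 3 against 3 can give.

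The place of Cxcl12 within each library moved accordingly. It ranked 6403, 5285 and 1570 among the genes above 0 in the cKO libraries, within the top 36.2%, 29.7% and 8.3%, and 192, 186 and 200 in the WT libraries. Replicate 3 was the exception among the cKO libraries, at 5.17 times the level of replicate 1 and 3.55 times that of replicate 2. The coefficient of variation was 90.0% over the cKO libraries and 3.39% over the WT libraries. The genes of chromosome 6 had a median log2 difference of -0.25, and with each chromosome centred the difference of Cxcl12 was -4.07. In cKO replicate 3 the summed mesenchymal markers stood at 165 RPKM, against 126 and 129.5 RPKM in cKO replicates 1 and 2. Prrx1 alone gave 72.24, 39.46 and 45.51 RPKM of these sums in cKO replicates 1 to 3. Col1a1 stood at 15.31, 14.64 and 71.44 RPKM in those libraries, and Pdgfrb at 2.09, 1.25 and 7.95 RPKM. Col3a1, Vcam1, Thy1 and Eng were also highest in cKO replicate 3, while Prrx1, Pdgfra, Lepr, Nt5e, Ly6a and Col1a2 were not. The part of these markers in the higher Cxcl12 of cKO replicate 3 was not tested.

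**Figure D1:**
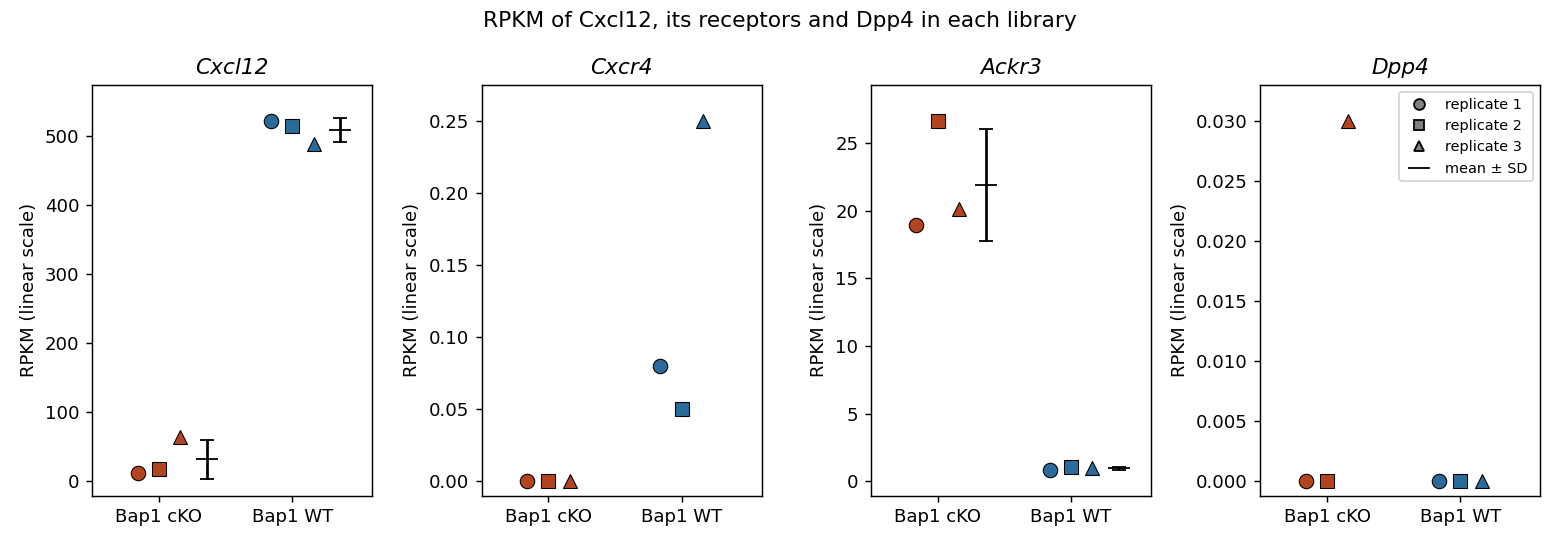
RPKM of Cxcl12, Cxcr4, Ackr3 and Dpp4 (one panel each, linear axes that differ in range) in 3 libraries labelled Bap1 cKO (left) and 3 labelled Bap1 WT (right). Symbols are replicates and bars the mean ± SD, left out for Cxcr4 and Dpp4, whose values lie at or near 0. Cxcl12 reaches at most 64.22 RPKM in cKO and at least 488.27 RPKM in WT, and Ackr3 shows the opposite order.

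The signalling receptor Cxcr4 (ENSMUSG00000045382, chromosome 1, 128588199 to 128592293, minus strand) was listed at 0 in all 3 cKO libraries and at 0.08, 0.05 and 0.25 RPKM in the WT libraries. These WT values correspond to about 1.92, 1.09 and 6.15 fragments by the depth estimate, so only WT replicate 3 lay above the level of 3 fragments, 0.122 RPKM there. In the cKO libraries 3 fragments would be worth 0.139, 0.128 and 0.0827 RPKM, and a difference between the groups was not detectable at this depth. Cxcr4 was below the minimum mean, and without a minimum limma gave an adjusted p of 0.111. Of the blood cell markers, the T cell gene Cd3e was listed at 0 in every library and the pan-leukocyte gene Ptprc at 0.03 RPKM at most, in cKO replicate 3. The macrophage gene Csf1r was above 0 in all libraries, at 0.36 to 1.3 RPKM in cKO and 0.31 to 0.83 RPKM in WT. Lyz2, a lysozyme of myeloid cells, was at 0 to 0.19 RPKM in cKO and 0.4 to 0.65 RPKM in WT, and the globin Hbb-bs reached 2.24 RPKM in cKO replicate 2 and at most 0.16 RPKM in WT. The part of blood cells in the Cxcr4 values was not tested. The 10 blood cell markers summed to 0.8 to 2.97 RPKM in the cKO libraries and 0.88 to 1.64 RPKM in the WT libraries, and the 7 endothelial markers to at most 0.81 RPKM in any library.

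The scavenging receptor Ackr3 (ENSMUSG00000044337, chromosome 1, 90203980 to 90216751, plus strand) reached 18.96, 26.64 and 20.14 RPKM in the cKO libraries and 0.85, 1.05 and 0.97 RPKM in the WT libraries. The groups did not overlap, as in 39.2% of all genes tested for the higher direction, and cKO replicate 3 lay between the other cKO libraries. The rise was 22.9-fold in group means, and 20.4 to 24.4-fold with any 1 library left out. The single cKO libraries were 19.8, 27.8 and 21.1 times the WT mean. The log2(RPKM + 1) difference was 3.54 ± 0.15 (SE) and limma's adjusted p was 9.26e-06, and 183 genes, or 1.5% of those tested, differed at least as far in the higher direction. The exact two-sided permutation test again gave its smallest possible p of 0.1. The WT level rests on about 36, 40.2 and 42 estimated fragments per library, whose counting error alone is 15.4 to 16.7%. Genes of chromosome 1 had a median log2 difference of -0.14, opposite in sign to that of Ackr3.

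Dpp4 (ENSMUSG00000035000, chromosome 2, 62330073 to 62412231, minus strand) was listed at 0 in cKO replicates 1 and 2 and in all WT libraries, and at 0.03 RPKM in cKO replicate 3. That single value corresponds to about 3.37 fragments over the longest transcript. For that transcript 3 fragments would be worth 0.0413 to 0.045 RPKM in cKO replicates 1 and 2 and 0.0394 to 0.0447 RPKM in the WT libraries. The groups therefore could not be told apart for Dpp4, and without a minimum mean limma gave an adjusted p of 0.655.

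The ratio of Cxcl12 to Ackr3 in RPKM was 0.655, 0.679 and 3.19 in cKO replicates 1 to 3, whereas it was 613, 489 and 503 in WT replicates 1 to 3. Ackr3 was the more abundant transcript of the pair in cKO replicates 1 and 2, and Cxcl12 in cKO replicate 3 and every WT library. The log2 ratio averaged 0.17 ± 1.304 in the cKO libraries and 9.06 ± 0.18 in the WT libraries (SD, n = 3 each), a difference of -8.89 with an exact two-sided permutation p of 0.1. Cxcr4 and Dpp4 ranked below both genes in every library. Values this near to 0 give Cxcr4 and Dpp4 no order to each other in the cKO libraries or in WT replicates 1 and 2, while WT replicate 3 had Cxcr4 above Dpp4.

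**Figure D2:**
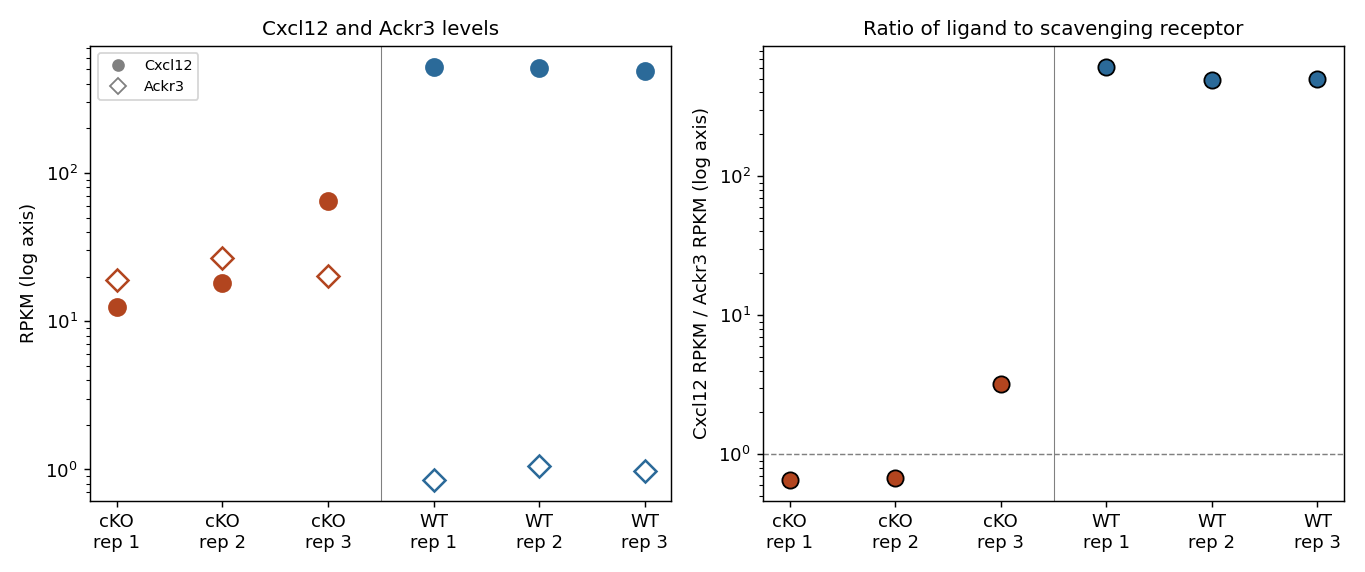
Left, RPKM of Cxcl12 (filled circles) and Ackr3 (open diamonds) in each library on a log axis, and right, their ratio on a log axis with a dashed line at equality. The libraries labelled cKO are on the left of each panel. The ratio lies between 0.655 and 3.19 in the cKO libraries and between 489 and 613 in the WT libraries.

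The genes whose pattern was most like that of a member were found by the root mean square difference of centred log2(RPKM + 1) values over the 6 libraries, among 11020 named genes. This ranking describes the profiles, in which the groups dominate, and carries no test. Nearest to Cxcl12 were the lysyl oxidase relative Loxl1 (0.17), the secreted glycoprotein Angptl2 (0.19) and the matricellular protein Ccn4 (0.19). Loxl1 had 0.45, 0.6 and 4.07 RPKM in the cKO libraries and 42.3, 36.87 and 39.87 RPKM in WT. Each of these genes was highest in replicate 3 among the cKO libraries, as Cxcl12 was, which a ranking over all 6 libraries favours. Nearest to Ackr3 were the transcriptional coactivator Eya2 (0.11), the surface glycoprotein Cd24a (0.15) and the tetraspanin Tspan11 (0.15). Eya2 had 217.38, 272.09 and 200.34 RPKM in the cKO libraries and 15.83, 20.67 and 16.65 RPKM in WT, and Tspan11 at 9.2 to 9.95 RPKM in cKO and 0 in WT. For Cxcr4 and Dpp4 the measure returns genes that hardly vary, such as Wdr75 (0.03) and Ptpn11 (0.02), because the members themselves hardly vary on this scale.

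**Figure D3:**
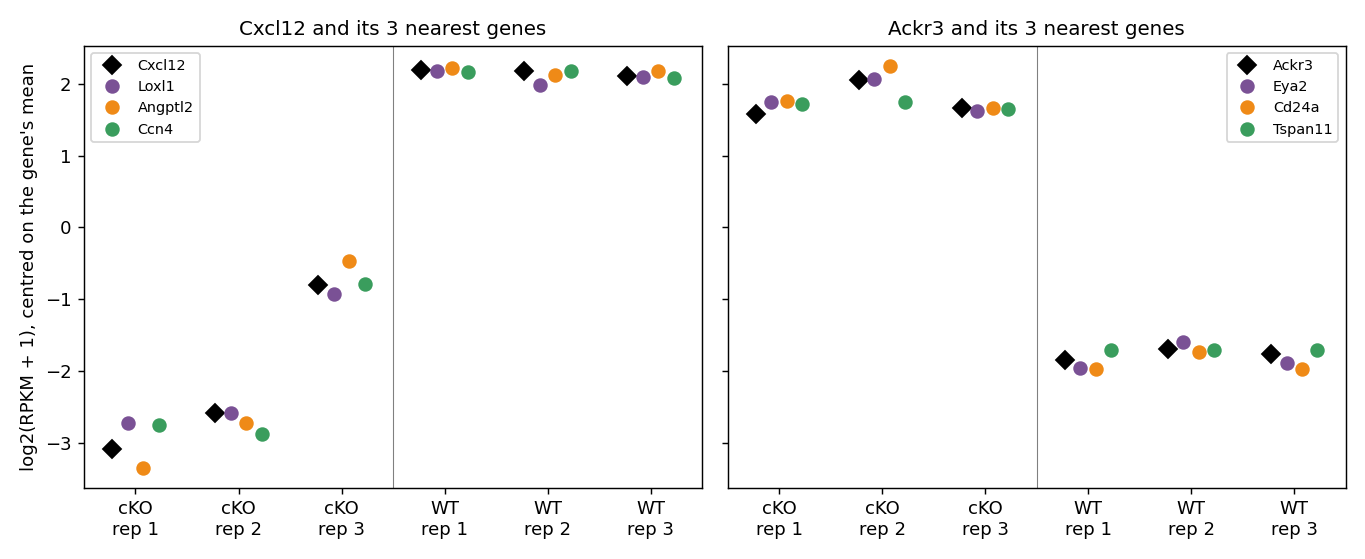
Centred log2(RPKM + 1) values of Cxcl12 (left) and Ackr3 (right), each with its 3 nearest genes, in the 3 libraries labelled cKO and the 3 labelled WT. Diamonds are the member and circles the other genes. Cxcl12, Loxl1, Angptl2 and Ccn4 all stand higher in cKO replicate 3 than in cKO replicates 1 and 2, which is not seen for Ackr3. The other genes were chosen for their likeness to the member over these same libraries.

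The rest of the pathway was read in 6 lists of 121 genes, of which 77 were tested, 23 higher, 33 lower and 21 not passing. Of 27 tested genes for receptor signalling and trafficking, 8 were higher and 11 lower, with a median log2 difference of -0.21 against 0.09 over all genes. Rgs16, which shuts off G protein signalling, was at 0, 0 and 0.06 RPKM in the cKO libraries and 4.88 ± 0.687 RPKM in WT (limma adjusted p = 3.08e-05). Elmo1, which activates Rac with Dock proteins, was listed at 0 in every cKO library and at 6.44 ± 0.907 RPKM in WT (limma adjusted p = 1.7e-05). Gnb1, a G protein beta subunit, fell 2.24-fold, and the focal adhesion adaptor Pxn rose 3.65-fold to 66.2 ± 11.4 RPKM, against 18.2 ± 1.0 RPKM in WT. Dock1, chosen after its values were seen, was one of the 8 called higher at a log2 difference of 0.29, and was lower, at -0.35 (limma adjusted p = 0.0241), with each chromosome centred.

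In the list of proteases and Dpp4 relatives 2 of 9 tested genes were higher and 4 lower (median log2 difference -0.29). The matrix metalloproteases Mmp2 and Mmp14, which trim the amino terminus of human CXCL12, fell 3.97-fold to 49.5 ± 25.7 RPKM, against 197 ± 7.33 RPKM in WT, and 4.36-fold to 52.9 ± 14.0 RPKM, against 231 ± 5.59 RPKM in WT. Mmp13 was at 0, 0.03 and 0.07 RPKM in the cKO libraries and 4.14 ± 0.575 RPKM in WT (limma adjusted p = 4.6e-05). Dpp8, a cytosolic relative of Dpp4, rose 2.15-fold to 43.2 ± 1.84 RPKM, against 20.1 ± 0.862 RPKM in WT. The nearest relative on the cell surface, Fap, chosen after its values were seen, was at 0 in the cKO libraries and at 0.22, 0.15 and 0.03 RPKM in WT.

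Heparan sulphate chains hold Cxcl12 at the cell surface and in the matrix. Of 19 tested genes of their cores and enzymes, 4 were higher and 8 lower (median log2 difference -0.44). The core protein Gpc1 (glypican) fell 18-fold to 9.31 ± 2.82 RPKM, against 167 ± 14.6 RPKM in WT. The syndecan Sdc3 fell 22.7-fold to 2.02 ± 1.71 RPKM, and 43.8-fold without cKO replicate 3, and Sdc1 fell to 51.3 ± 1.9 RPKM, against 84.6 ± 3.93 RPKM in WT. The sulphatase Sulf2, which removes sulphate groups from the chains, fell 2.25-fold to 68.7 ± 10.6 RPKM. Its paralog Sulf1, chosen after its values were seen, rose to 21.83, 22.73 and 106.07 RPKM in the cKO libraries, against 4.94, 5.07 and 4.42 RPKM in WT (limma adjusted p = 0.00629). That rise was 10.4-fold, and 4.63-fold without cKO replicate 3.

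Genes known to set Cxcl12 in marrow stroma went both ways, 5 of 14 higher and 7 lower (median log2 difference -0.64). The transcription factor Ebf1 was at 0.04, 0.01 and 0.13 RPKM in the cKO libraries and 11.45 ± 1.4 RPKM in WT (limma adjusted p = 5.86e-06), and the interleukin receptor Il1r1 at 0.04, 0.17 and 0.52 RPKM against 8.3 ± 1.05 RPKM. Foxc1, a transcription factor required for Cxcl12-abundant cells in mouse marrow, rose 5-fold to 62.0 ± 6.33 RPKM, against 12.4 ± 1.64 RPKM in WT. The connexin Gjc1, one of the gap junction proteins through which mouse stromal cells control Cxcl12 release, rose 2.96-fold to 36.9 ± 3.17 RPKM, against 12.5 ± 0.454 RPKM in WT.

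The list of other ligands, receptor partners and scavengers held 18 genes, of which 6 were tested, 4 of them higher and 1 lower (median log2 difference 1.57). Adm, the vasoactive peptide adrenomedullin that Ackr3 scavenges in mouse, rose 4.69-fold to 112 ± 46.1 RPKM, against 23.8 ± 3.76 RPKM in WT. Ramp2, a partner of the adrenomedullin receptor chosen after its values were seen, was called higher (limma adjusted p = 0.0283), a call lost when any 1 library other than cKO replicate 3 was left out. Pnoc, the precursor of nociceptin and so of the opioid peptide family that human ACKR3 scavenges, measured 1655.34, 177.46 and 255.51 RPKM in the cKO libraries and was listed at 0 in WT (limma adjusted p = 0.000162). The chemokine Cxcl14 rose 8.75-fold to 4.87 ± 3.13 RPKM, and 5.51-fold without cKO replicate 1. Mif, a further ligand of Cxcr4, fell 1.4-fold to 537 ± 36.3 RPKM, against 754 ± 58.5 RPKM in WT. The other atypical receptors Ackr1, Ackr2 and Ackr4 reached at most 0.53 RPKM in any library, and Cxcl11, the other chemokine ligand of Ackr3, was listed at 0 throughout.

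In the list of other substrates and partners of Dpp4, 9 of 16 genes were at 0 in all libraries and 2 were tested, both lower. These 2 were the partners Ada and Cav1, and the 14 genes listed as substrates lay below the minimum mean. Ada, adenosine deaminase, which binds DPP4 in human, fell 4.61-fold to 2.53 ± 0.946 RPKM, against 11.7 ± 1.51 RPKM in WT. Cav1, the caveolin that binds human DPP4, fell 5.13-fold to 50.8 ± 31.3 RPKM, and 7.94-fold without cKO replicate 3. The shares of called genes in these lists stand beside 34.7% higher and 26.5% lower over all genes and were not tested against them.

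**Figure D4:**
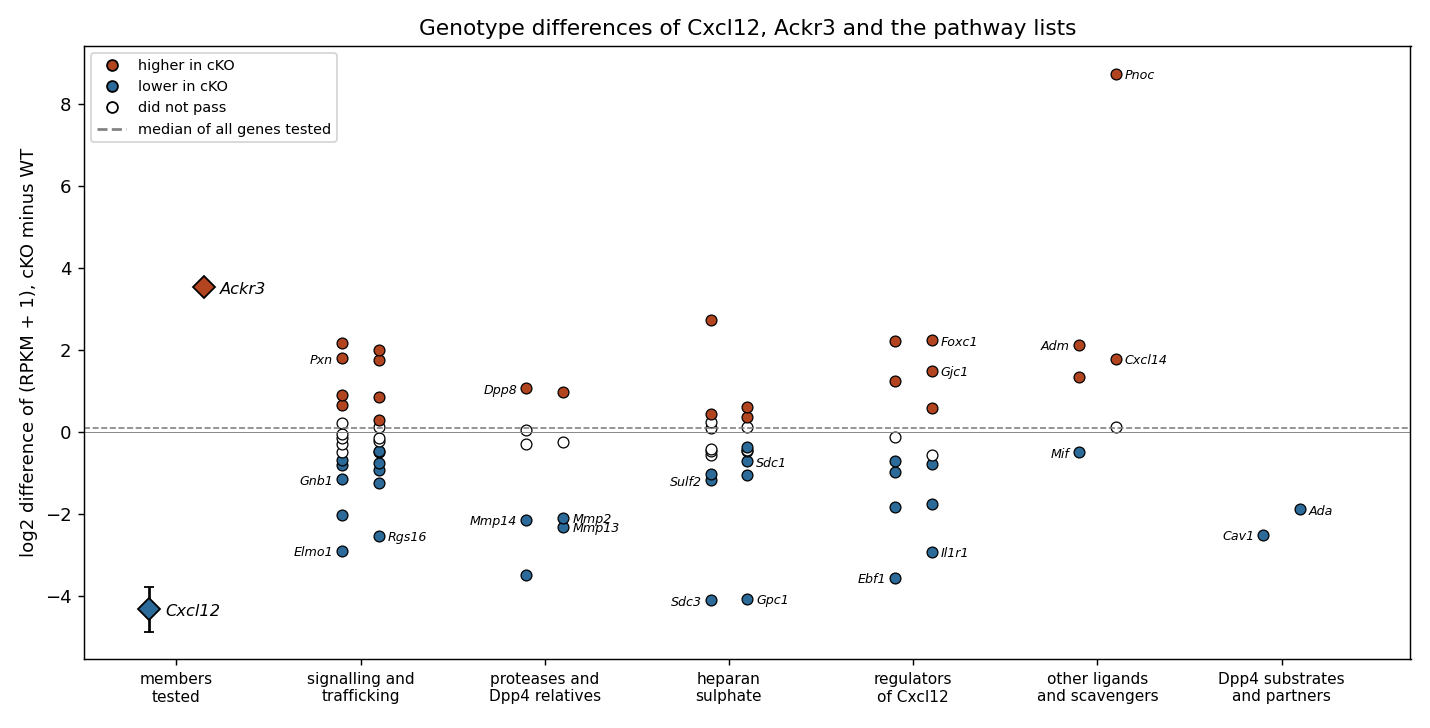
Log2 difference of (RPKM + 1), cKO minus WT, of Cxcl12 and Ackr3 (diamonds, bars are the SE, smaller than the symbol for Ackr3) and of the tested genes of 6 pathway lists (circles). Red marks genes called higher, blue lower and white not passing (limma, adjusted p under 0.05), the dashed line is the median of 0.09 over all 12223 genes, and the named genes are those with the smallest p of each list. Among the list genes only Pnoc lies above Ackr3 at 3.54, and none lies below Cxcl12 at -4.31.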

How the data were processed

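The authors deposited RPKM values (reads scaled to gene length and library size) with 2 decimals for 55471 Ensembl identifiers in 6 columns, 1 per library. RNA was extracted with TRIzol and made into stranded mRNA libraries, per the labels' protocols. Per the submitters' processing notes the tools were RSEM 1.3.1, STAR 2.7.1a and cutadapt 2.8, on GRCm38, and the annotation version is not given in the sources used here. Symbols and coordinates came from GENCODE M21 (GRCm38), which held 55144 identifiers. Read counts were not used. Depth came from the step that 1 fragment makes in single-transcript genes of 800 to 3500 bp, less 150 bp. It was 13.0, 14.2 and 21.9 megafragments (M) in the cKO libraries and 14.5, 13.1 and 14.9 M in the WT libraries. At that step 87.7 to 90.9% of the values lay within 0.2 of a whole fragment. Chance gives 40% for a step set beforehand, but more here, since the step was fitted to these same values. Fragment estimates use the longest transcript and cover counting error only. All 3 cKO and 3 WT libraries entered limma 3.58.1 (R 4.3.3), two-sided, on log2(RPKM + 1) with a variance trend, for genes averaging 1 RPKM or more, with Benjamini-Hochberg adjustment over 12223 genes. Folds are ratios of mean RPKM and are not given if any library on the lower side held fewer than 3 fragments. Named genes are the members, Bap1, the cell type markers, up to 4 genes of smallest p per list and the 3 nearest profiles per member, and others are said to be chosen after their values were seen. Some markers are not reported here. The members, lists and tests were chosen with earlier results of these data known. Alternatives covered pseudocount, minimum mean, scaling, variance prior, sample weights, chromosome centring, a replicate block and leaving out each library. On simulated data with 12223 genes, the procedure found 17.1% of the genes given a log2 change of 0.5, 72.6% of those given 1 and 90.7% of those given 2. In that simulation 4.88% of its calls were false. Few genes were changed there, and each gene had the same spread in both groups. In the real data 61.2% of genes were called and the spread could differ between groups, as for Cxcl12, so these rates need not hold here. Figures were drawn with matplotlib 3.10.9, and tables were handled with pandas 2.3.3 and numpy 2.4.6 in Python 3.11.15.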

Additional observations from a re-analysis of the deposited data

How the results depend on the processing

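Cxcl12 stayed lower and Ackr3 higher, both past the threshold, under each of the 20 alternatives run. Their log2 differences ranged from -4.99 to -3.85 (limma adjusted p from 2.96e-06 to 0.00502) and from 3.39 to 4.37 (1.9e-06 to 0.000228). The ends of the Cxcl12 range are the fits without cKO replicate 3 and without cKO replicate 1. Cxcr4, with no test at a minimum mean of 1 RPKM, moved in value from -0.17 to -1.08 and -0.31 with pseudocounts of 0.1 and 0.5, and Dpp4 moved from 0.01 to 0.13 with a pseudocount of 0.1. This follows from the pseudocount, since their values lie near 0. With a library left out the Cxcr4 value ranged from -0.22 to -0.09 and that of Dpp4 from 0 to 0.02. Genes called over the whole table ranged from 3237 to 4865 higher and 2487 to 3862 lower, and list genes from 18 to 25 higher and 28 to 39 lower. Of the 77 tested list genes, 23 changed their call under at least 1 alternative, among them Ramp2, and Dock1 alone changed its direction as a call. Scaling by TMM factors or by the median of ratios moved the median of all genes from 0.09 to -0.01. With the replicate number as a block, 3811 genes were higher and 2938 lower, and the differences of Cxcl12 and Ackr3 kept an adjusted p of 0.00182 and 0.000182. The deviations of same-numbered libraries correlated at -0.0166, 0.0505 and -0.0189, and those of differently numbered libraries at -0.0425 to 0.0489. With 3 libraries in each group, values this near 0 do not settle whether the numbers pair the samples. Settings that apply only to tested genes gave no value for Cxcr4 and Dpp4. Depth limits Cxcr4 and Dpp4, which rest on a few fragments or none.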
